A study of Rattus norvegicus with 72 samples.

Results

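The genes described are 9 that encode acute phase proteins and complement components: Lcn2, Lbp, Hp and Cp on the acute phase side, and C1s, C2, C3, Cfb and Serping1 on the complement side. They were taken by symbol from a count table of 30042 gene symbols, and 9 of 9 were found and tested in every comparison. The table holds RNA sequencing of lung from 72 adult male Sprague-Dawley rats, 1 library per animal, in 12 groups of 6. The rats inhaled diesel exhaust particles, a combustion soot, or filtered air alone, with the whole body exposed, for 6 hours a day on 4 days, and were killed 1, 7 or 27 days later. At each day there were 4 groups: rats exposed to 1000 ug/m3 and air rats, both with the letter H in their titles, and rats exposed to 200 ug/m3 and air rats, both with the letter L. The air groups are called air H and air L here, and the labels do not say what separates the letters beyond the concentration. Controls for an exposed group were the air rats of the same letter and day, so the 6 exposure comparisons share no control animal. The labels name no other strain, genotype or treatment, and the RNA came from a piece of whole lung. The comparisons ask whether the inhaled particles changed these transcripts in the lung, at which concentration and for how long.

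The acute phase is the change in plasma proteins that follows injury or infection, driven largely by interleukin-6 and interleukin-1 acting on liver, and several of its proteins are also made by lung epithelium and macrophages. Lcn2 binds bacterial siderophores and so withholds iron, Lbp delivers bacterial lipopolysaccharide to Cd14 and Tlr4, Hp captures free haemoglobin, and Cp is a copper-carrying ferroxidase. In complement, C1s cleaves C4 and C2 to start the classical pathway, C2 and Cfb supply the proteases of the classical and alternative C3 convertases, C3 is the central component both converge on, and Serping1 is the C1 inhibitor.

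Promoter sequence is shown because the acute phase genes are known for control by NF-kappa B, STAT3 and C/EBP factors, and the letters let a reader see which of these motifs lie next to the start. RefSeq promoters were matched for 3 of 9 members, Lcn2, C3 and Cp, in the build GRCr8, which is not the build of the counts. Each line gives the 250 bases before the gene's start, 5′ to 3′ on the gene's own strand, and capitals mark motif matches.
Lcn2: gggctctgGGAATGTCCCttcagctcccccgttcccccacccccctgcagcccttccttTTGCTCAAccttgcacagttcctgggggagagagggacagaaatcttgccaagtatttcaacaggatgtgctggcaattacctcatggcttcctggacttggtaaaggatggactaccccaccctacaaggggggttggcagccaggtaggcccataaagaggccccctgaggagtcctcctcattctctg
C3: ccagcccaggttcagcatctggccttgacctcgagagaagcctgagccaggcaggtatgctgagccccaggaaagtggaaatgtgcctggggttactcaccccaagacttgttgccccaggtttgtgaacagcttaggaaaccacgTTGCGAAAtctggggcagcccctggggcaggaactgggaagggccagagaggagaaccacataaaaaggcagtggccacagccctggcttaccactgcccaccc
Cp: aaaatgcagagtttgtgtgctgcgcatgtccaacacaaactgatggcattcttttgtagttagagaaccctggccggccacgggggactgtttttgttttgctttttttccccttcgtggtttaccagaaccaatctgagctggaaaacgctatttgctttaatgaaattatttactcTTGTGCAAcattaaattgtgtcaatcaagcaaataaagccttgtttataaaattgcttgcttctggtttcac
The regions are chr3:36081781-36082030 on the minus strand for Lcn2, chr9:2201340-2201589 on the minus strand for C3 and chr2:104368420-104368669 on the plus strand for Cp. Lcn2 held 1 match to the NF-kappa B consensus, GGAATGTCCC, 242 to 233 bases before the start, and a C/EBP match, TTGCTCAA, at 191 to 184 bases. C3 held the C/EBP match TTGCGAAA at 104 to 97 bases before its start, and Cp the match TTGTGCAA at 72 to 65 bases. Motifs were searched on both strands as the NF-kappa B consensus by its name, STAT as TTCNNNGAA and C/EBP as TTGCNNAA, and no match overlapped another. No STAT match lay in these 3 windows. Of 33469 rat promoters of the same length, 3.54% held the NF-kappa B motif, 7.67% the STAT motif and 9.22% the C/EBP motif. Promoters of Lbp, Cfb, C2, C1s, Hp and Serping1 were not used here. These matches are descriptions of the letters and not evidence of binding.

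Library totals bear on every value. The 24 libraries of day 1 held 1042336 to 2397971 counts, 23 libraries of day 7 held 3471134 to 6279763 and 22 libraries of day 27 held 3761631 to 6520180. The remaining 3 libraries were shallow and all from rats exposed to 1000 ug/m3: animal 037 at day 7 with 105453 counts, and animals 024 and 045 at day 27 with 439393 and 149004. Their levels rest on few reads, down to 1 Lbp count in animals 037 and 045, and the count model gives them less weight, so that a fitted fold change can differ from the ratio of group means. Markers of alveolar type II cells summed to 15040 to 18360 CPM (CPM are counts per 1000000 after TMM scaling, the trimmed mean of M values) in air H at day 7, and all 7 were detected in every group. Markers of hepatocytes, the main source of plasma acute phase proteins, were near 0 in most libraries: Alb, Ttr and Apoh had a median of 0 CPM with 41, 60 and 66 of 72 libraries at 0, Apoa1 had a median of 0.407 CPM and Ahsg 0.196, Alb reached 63.7 CPM in 1 library, and none of these 5 passed the filter on low counts. The summed level of these 5 reached 74.9 CPM in 1 air H lung of day 7, the group that held the highest Alb value. It reached 18.5 CPM in 1 lung of day 7 after 1000 ug/m3. Their part in the members' levels was not tested. In RNA from whole tissue, fewer cells of a type and less RNA per cell cannot be told apart.

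None of the 9 genes passed the test between exposed and air lungs at either concentration on any day. By edgeR's quasi-likelihood test with Benjamini-Hochberg adjustment over all genes (threshold 0.05), 0 of 9 were called at day 1 after 1000 ug/m3 (0% of 12304 genes tested) and after 200 ug/m3 (0%), 0 of 9 at day 7 after 1000 ug/m3 (0% of 14331) and after 200 ug/m3 (0.00698%), and 0 of 9 at day 27 after 1000 ug/m3 (0% of 14761) and after 200 ug/m3 (0%). DESeq2 and limma-voom also called 0 of 9 in each of these 6 comparisons. At an unadjusted p under 0.05 there were 0 members in both day 1 comparisons and 1 member in each of the 4 later ones, beside 3.41% and 6.02% of all genes at day 1, 4.39% and 5.71% at day 7, and 7% and 9.69% at day 27. Exact permutation tests of the 6 against 6 levels, two-sided and unadjusted over the 54 run, gave p under 0.05 for 4 values, Cp at day 1 after 200 ug/m3 (0.0260), Lcn2 at day 7 after 1000 ug/m3 (0.0195), Lbp at day 27 after 1000 ug/m3 (0.0325) and Cfb at day 27 after 200 ug/m3 (0.0130). Among 54 unadjusted tests some p values under 0.05 arise by chance, and the share over all genes was not computed for this test. The exposed and air groups overlapped for 9 of 9 genes in 6 of 6 comparisons, and only 0.195% to 0.562% of all genes did not overlap in them.

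**Figure D1:**
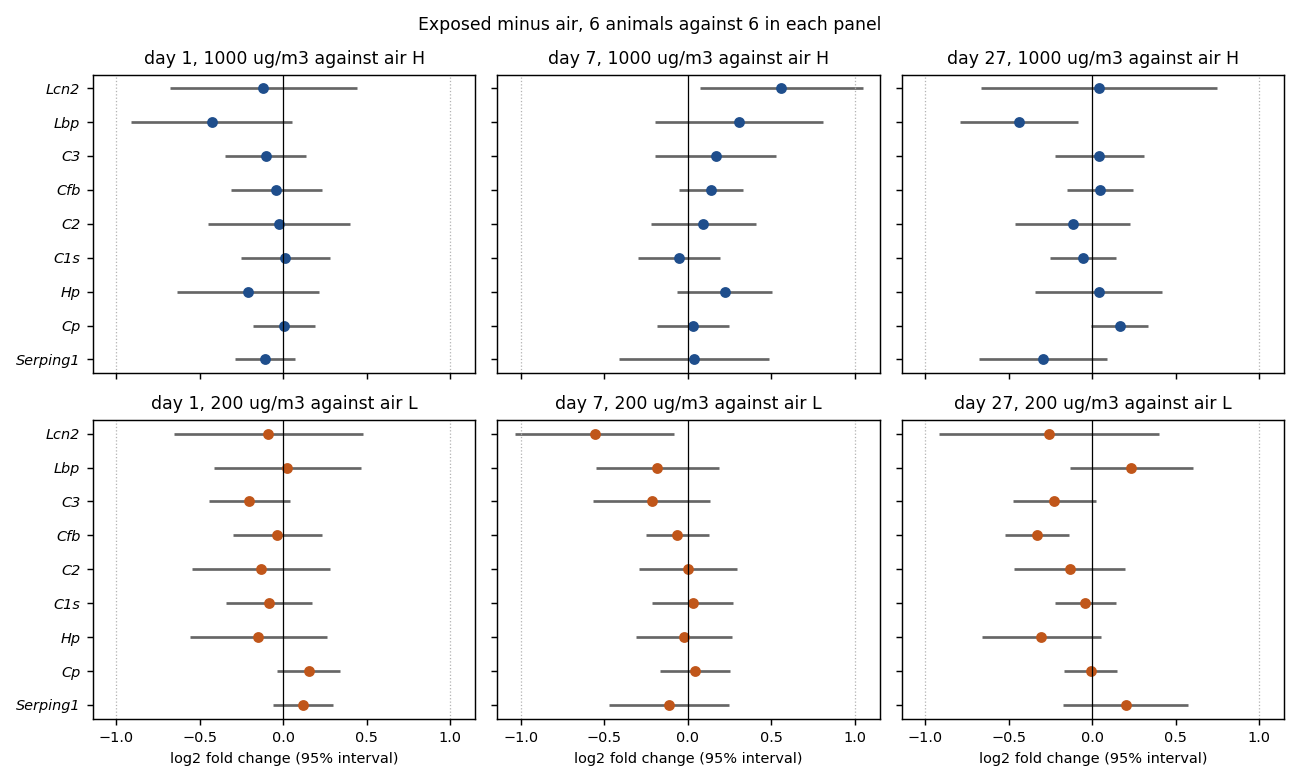
Log2 fold change of exposed over air lungs (horizontal axis) for the 9 genes, with 95% intervals from edgeR, 6 animals against 6 per panel; dotted lines mark 2-fold. Lcn2 at day 7 lies at 0.56 after 1000 ug/m3 and -0.56 after 200 ug/m3, and its 2 intervals there are the only ones that reach a dotted line.

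The intervals give a range for the change of each gene in each comparison separately. They were not adjusted for their number, so they do not jointly bound a missed change. The 95% interval stayed within a 2-fold change for 9 of 9 genes in both day 1 and both day 27 comparisons, beside 94.15% to 96.15% of all genes tested, and for 8 of 9 in both day 7 comparisons, where Lcn2 was the exception. Averaged over the 3 days and both concentrations, the mean exposure effect lay between -0.10 for C3 and 0.06 for Cp on the log2 scale, 0 of 9 were called (0.0134% of 14956 genes), and 1 of 9 values was positive, beside 46.2% over all genes. Each of these 9 mean effects had an interval within a 1.5-fold change, as did 96.5% of all genes. Direct tests of whether the effect of 1000 ug/m3 differed from that of 200 ug/m3 called 0 of 9 at day 1 (0.00813%), day 7 (0%) and day 27 (0%). At an unadjusted p under 0.05 these tests held 0, 1 and 2 members in edgeR, beside 4.36%, 5.21% and 13.3% of all genes.

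**Figure D2:**
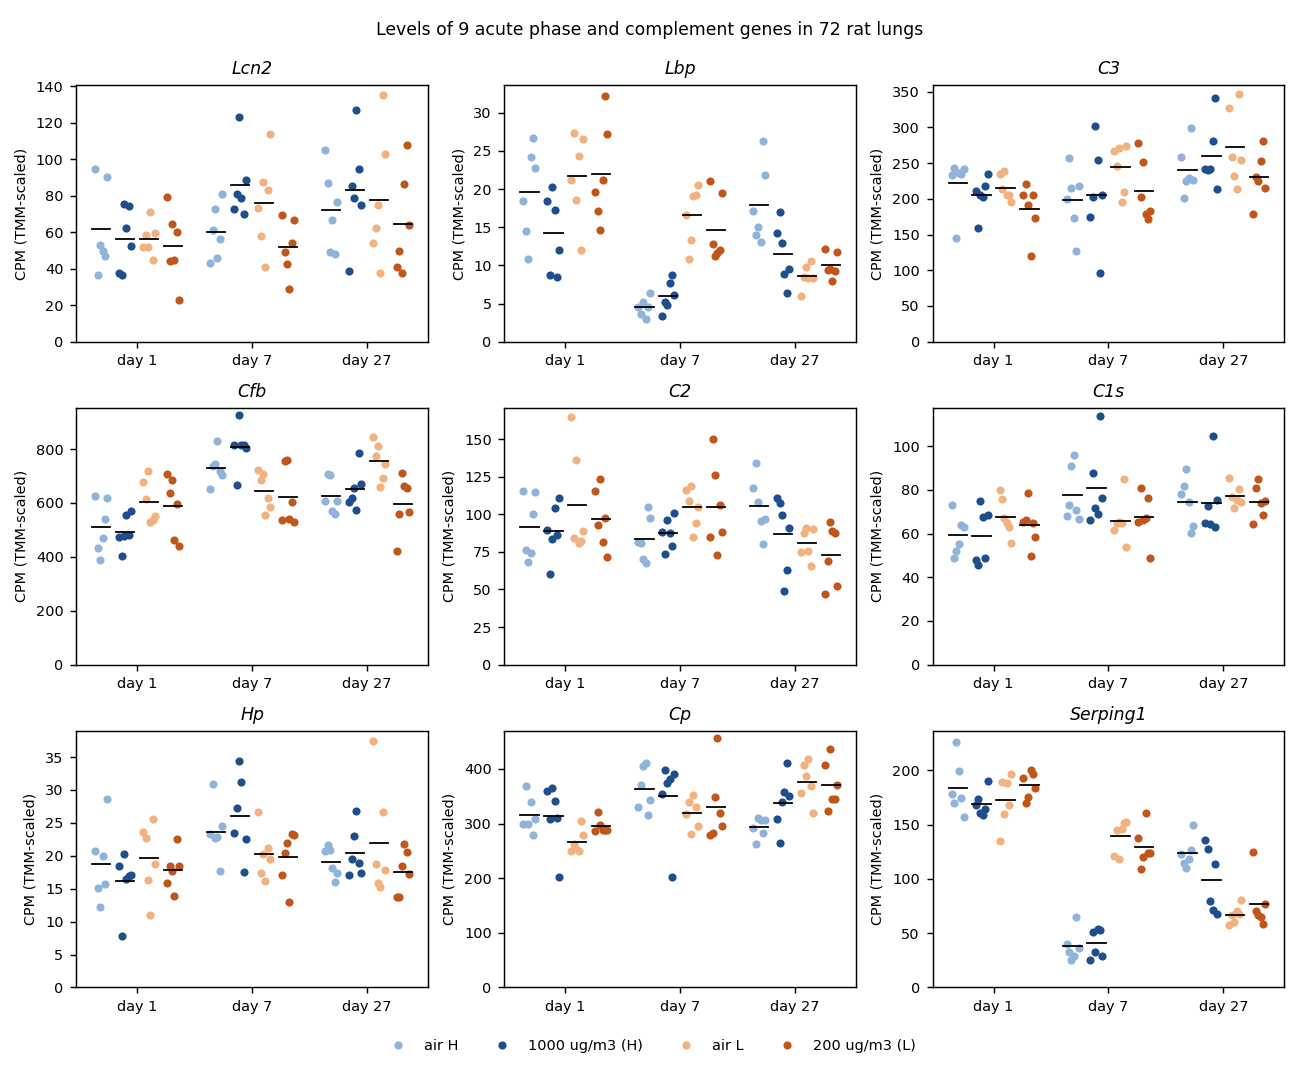
Level of each gene in TMM-scaled CPM (vertical axes, from 0) in every lung by day; points are animals, bars are group means, pale points are air and dark points exposed animals of the same letter. Lbp and Serping1 fall in both H groups at day 7, while the other 7 genes keep within 1.66-fold between their lowest and highest group means.

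Among the acute phase genes, Lcn2 (lipocalin 2) varied most between animals. All levels are mean ± SD of 6 animals in TMM-scaled CPM. Lcn2 stood at 61.9 ± 24.4 CPM in air H at day 1 beside 56.5 ± 17.1 in the lungs given 1000 ug/m3, while air L held 56.4 ± 9.08 beside 52.7 ± 19.6 at 200 ug/m3. By day 7 air H was at 59.96 ± 14.8 and its exposed counterpart at 85.8 ± 19.5, and air L at 76.04 ± 25.3 with 51.8 ± 15.3 at 200 ug/m3. On day 27 the levels were 72.1 ± 22.2 (air H), 83.3 ± 28.7 (1000 ug/m3), 77.7 ± 35.6 (air L) and 64.4 ± 27.8 (200 ug/m3). The 83.3 includes the shallow animals 024 and 045, at 127 and 94.8 CPM on 57 and 15 counts. Without them Lcn2 after 1000 ug/m3 averaged 69.5 ± 20.8, below air H. Its group means spanned 1.66-fold from lowest to highest, and 16.8% of all genes varied more within groups. In the day 7 lungs the lowest, median and highest levels were 43.1, 58.8 and 80.8 CPM for air H against 70.2, 79.99 and 123 at 1000 ug/m3. Those for air L were 40.7, 78.3 and 114, against 28.7, 51.7 and 69.3 at 200 ug/m3. The 70.2 at 1000 ug/m3 was the shallow animal 037, on 8 counts, and the lowest of the other lungs there was 72.8. At day 7, 6 of 6 lungs exposed to 1000 ug/m3 lay above the air H mean and 6 of 6 exposed to 200 ug/m3 lay below the air L mean, and both pairs of groups overlapped. The log2 difference was 0.56 (SE 0.23) after 1000 ug/m3 (unadjusted p = 0.0267, adjusted p = 1 in edgeR) and -0.56 (SE 0.23) after 200 ug/m3 (unadjusted p = 0.0242, adjusted p = 0.809). The 2 effects differed by 1.12 (95% interval 0.43 to 1.8, adjusted p = 0.891 in edgeR), which did not pass the test. At days 1 and 27 the Lcn2 differences lay between -0.26 and 0.04, and the widest of their intervals ran from -0.67 to 0.74, after 1000 ug/m3 at day 27.

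Lbp, the lipopolysaccharide binding protein, differed with the letter and the day and did not pass the test with exposure. At day 1 Lbp measured 19.6 ± 6.10 CPM in air H and 14.2 ± 5.15 at 1000 ug/m3, against 21.7 ± 5.74 in air L and 22.03 ± 6.54 at 200 ug/m3. Day 7 lungs gave 4.55 ± 1.19 for air H, 6.01 ± 1.97 for 1000 ug/m3, 16.6 ± 3.81 for air L and 14.7 ± 4.38 for 200 ug/m3. In the last lungs, day 27, air H averaged 17.9 ± 5.18, those given 1000 ug/m3 11.5 ± 3.92, air L 8.60 ± 1.59 and those given 200 ug/m3 10.04 ± 1.60. Both H groups at day 7 were the lowest of the 12, and the lowest, median and highest values there were 3.00, 4.58 and 6.32 in air H and 3.43, 5.69 and 8.78 after 1000 ug/m3. The 8.78 is the shallow animal 037, on 1 count. Without it the highest was 7.72 and the mean 5.46 ± 1.60. The exposure differences were -0.43, 0.31 and -0.44 at days 1, 7 and 27 after 1000 ug/m3, and 0.02, -0.18 and 0.23 after 200 ug/m3. After 1000 ug/m3 at day 27 the value carried an unadjusted p of 0.0168 and an adjusted p of 0.661 in edgeR, with 6 of 6 exposed lungs below the air H mean. These 6 include the shallow animals 024 and 045, and the mean of the other lungs was 13.4 ± 3.09 CPM. Set against both air groups of that day pooled, the 6 exposed lungs differed by -0.02. With the pooled control the sign of the other 3 later Lbp values changed: at day 7 they became -0.91 (adjusted p = 0.280) after 1000 ug/m3 and 0.49 after 200 ug/m3, and at day 27 -0.40 after 200 ug/m3. Air H and air L themselves differed for Lbp, by -1.89 at day 7 and 1.05 at day 27. Values against the pooled control therefore mix letter with exposure.

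Neither Hp, haptoglobin, nor Cp, ceruloplasmin, passed the test with exposure. Hp averaged 18.7 ± 5.85 CPM in air H of day 1, 16.2 ± 4.30 at 1000 ug/m3, 19.7 ± 5.42 in air L and 17.8 ± 2.93 at 200 ug/m3. The order H air, 1000 ug/m3, L air, 200 ug/m3 read 23.7 ± 4.22, 26.1 ± 6.16, 20.2 ± 3.66 and 19.8 ± 4.05 for Hp at day 7. Hp then stood, at day 27, at 19.1 ± 2.29 in air H, 20.4 ± 3.75 at 1000 ug/m3, 21.99 ± 8.63 in air L and 17.6 ± 3.40 at 200 ug/m3. Hp group means spanned 1.61-fold from lowest to highest, beside a median of 1.56-fold over all genes, and 37.5% of all genes varied more within groups. Its exposure differences were -0.21, 0.22 and 0.04 at days 1, 7 and 27 after 1000 ug/m3, and -0.15, -0.03 and -0.31 after 200 ug/m3. Cp stood at 316 ± 32.9 CPM in air H at day 1 beside 314 ± 59.8 in the lungs given 1000 ug/m3, while air L held 266 ± 21.6 beside 295 ± 13.6 at 200 ug/m3. By day 7 air H was at 363 ± 39.9 and its exposed counterpart at 349.9 ± 74.02, and air L at 319.6 ± 27.1 with 331 ± 67.1 at 200 ug/m3. Without the shallow animal 037 Cp after 1000 ug/m3 averaged 379.5 ± 16.45 at day 7. On day 27 the levels were 294 ± 17.9 (air H), 338 ± 49.2 (1000 ug/m3), 376 ± 36.4 (air L) and 371 ± 43.01 (200 ug/m3). Cp had the smallest spread between animals of the 9, an SD of 0.18 within groups on the log2 scale, and 73.99% of all genes varied more. Its exposure differences were 0.0039, 0.03 and 0.16 at days 1, 7 and 27 after 1000 ug/m3, and 0.15, 0.04 and -0.01 after 200 ug/m3, and at day 1 after 200 ug/m3 6 of 6 lungs lay above the air L mean with an adjusted p of 0.859 in edgeR.

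None of the proteases that start and carry complement activation passed the test with exposure. At day 1 C1s measured 59.4 ± 8.98 CPM in air H and 58.9 ± 12.9 at 1000 ug/m3, against 67.8 ± 8.83 in air L and 63.9 ± 9.53 at 200 ug/m3. Day 7 lungs gave 77.6 ± 12.5 for air H, 80.9 ± 17.9 for 1000 ug/m3, 65.98 ± 10.3 for air L and 67.5 ± 10.99 for 200 ug/m3. In the last lungs, day 27, air H averaged 74.6 ± 11.11, those given 1000 ug/m3 74.2 ± 15.8, air L 77.4 ± 5.00 and those given 200 ug/m3 74.6 ± 7.58. For C1s, the serine protease of the C1 complex, the exposure differences were 0.01, -0.05 and -0.06 at days 1, 7 and 27 after 1000 ug/m3, and -0.09, 0.03 and -0.04 after 200 ug/m3. C2 averaged 91.6 ± 21.3 CPM in air H of day 1, 89.1 ± 17.6 at 1000 ug/m3, 106 ± 35.6 in air L and 97.1 ± 19.7 at 200 ug/m3. The order H air, 1000 ug/m3, L air, 200 ug/m3 read 83.6 ± 14.8, 87.6 ± 10.1, 105 ± 13.1 and 105 ± 29.1 for C2 at day 7. C2 then stood, at day 27, at 105 ± 18.9 in air H, 86.8 ± 25.1 at 1000 ug/m3, 80.8 ± 10.2 in air L and 73.2 ± 20.2 at 200 ug/m3. Without the shallow animals 024 and 045 C2 after 1000 ug/m3 averaged 102.1 ± 8.88 at day 27. C2 group means ran from 73.2 to 106 CPM, and its exposure differences were -0.03, 0.09 and -0.12 at days 1, 7 and 27 after 1000 ug/m3, and -0.13, 0.00026 and -0.14 after 200 ug/m3. Cfb stood at 512 ± 97.8 CPM in air H at day 1 beside 494 ± 60.4 in the lungs given 1000 ug/m3, while air L held 605 ± 80.02 beside 588 ± 113 at 200 ug/m3. By day 7 air H was at 731 ± 58.5 and its exposed counterpart at 807 ± 82, and air L at 645 ± 69.5 with 620.4 ± 109 at 200 ug/m3. On day 27 the levels were 626 ± 64.9 (air H), 651 ± 74.2 (1000 ug/m3), 754 ± 71.1 (air L) and 596 ± 104 (200 ug/m3). Cfb, factor B, showed its widest gap at day 27, where the lowest, median and highest levels were 420.5, 612 and 710.1 after 200 ug/m3 and 658, 759 and 844 in air L. There 6 of 6 exposed lungs lay below the air L mean but the groups overlapped, and the log2 difference of -0.33 (SE 0.09) had an unadjusted p of 0.00135 and an adjusted p of 0.352 in edgeR. The other Cfb exposure differences lay between -0.06 and 0.14.

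C3, the component on which all activation routes converge, also made no call with exposure. At day 1 C3 measured 222 ± 37.7 CPM in air H and 205 ± 25.2 at 1000 ug/m3, against 216 ± 17.6 in air L and 186 ± 36.1 at 200 ug/m3. Day 7 lungs gave 198 ± 44.4 for air H, 206 ± 70.03 for 1000 ug/m3, 244 ± 33.8 for air L and 211 ± 43.8 for 200 ug/m3. In the last lungs, day 27, air H averaged 239.8 ± 34.4, those given 1000 ug/m3 260 ± 45.3, air L 272 ± 53.2 and those given 200 ug/m3 231 ± 34.5. Without the shallow animals 024 and 045 C3 after 1000 ug/m3 averaged 234.4 ± 14.1 at day 27. The exposure differences were -0.11, 0.17 and 0.04 at days 1, 7 and 27 after 1000 ug/m3, and -0.20, -0.22 and -0.23 after 200 ug/m3, and 0 of these 6 passed the test. After 200 ug/m3 C3 lay below air L on 3 of 3 days, with intervals of -0.45 to 0.04, -0.57 to 0.13 and -0.48 to 0.02, each of which includes 0. Averaged over days and concentrations the difference was -0.10 (SE 0.06) with an adjusted p of 0.985 in edgeR.

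Serping1, the inhibitor of C1r and C1s, had the widest range of group means of the 9, 4.89-fold from lowest to highest, beside a median of 1.56-fold over all tested genes. Serping1 averaged 184 ± 24.8 CPM in air H of day 1, 169 ± 11.7 at 1000 ug/m3, 173 ± 23.4 in air L and 186 ± 12.3 at 200 ug/m3. The order H air, 1000 ug/m3, L air, 200 ug/m3 read 38.2 ± 14.04, 40.6 ± 13.2, 139 ± 15.4 and 129 ± 17.97 for Serping1 at day 7. Serping1 then stood, at day 27, at 124 ± 14.1 in air H, 99.2 ± 29.9 at 1000 ug/m3, 67.1 ± 8.02 in air L and 76.99 ± 24.3 at 200 ug/m3. Its exposure differences against the matched air group were -0.11, 0.04 and -0.30 at days 1, 7 and 27 after 1000 ug/m3, and 0.12, -0.11 and 0.20 after 200 ug/m3, with adjusted p values from 0.744 to 1 in edgeR. With both air groups of the day pooled as the control, the day 7 values became -1.20 (adjusted p = 0.170) after 1000 ug/m3 and 0.55 (adjusted p = 0.469) after 200 ug/m3. The day 27 values changed sign as well, to 0.07 and -0.31. Air H and air L themselves differed for Serping1, by -1.90 at day 7 and 0.88 at day 27, so the pooled values mix letter with exposure. At day 27 the lungs exposed to 1000 ug/m3 spread from 67.6 to 136 CPM, across the range of both air groups. Animals 021, 022 and 045 stood at 136, 127 and 114 CPM, near air H, and animals 023, 024 and 046 at 79.6, 71.4 and 67.6, near air L, and of these 024 and 045 rest on 32 and 18 counts.

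Between the air lungs of letter H and letter L, Lbp and Serping1 differed beyond their spread at days 7 and 27. At day 7, 2 of 9 genes were called between air H and air L (25.5% of all genes tested), both lower in H and with no overlap (14.4% of all genes did not overlap). Lbp stood at 4.55 ± 1.19 against 16.6 ± 3.81 CPM, a log2 difference of -1.89 (SE 0.21) with an adjusted p of 2.85e-08. The lowest, median and highest Serping1 values were 25.6, 34.5 and 64.8 in air H and 118, 146 and 153 in air L, a log2 difference of -1.90 (SE 0.19) with an adjusted p of 1.33e-07 in edgeR. C2, at -0.35 with an adjusted p of 0.0815, did not pass in edgeR, but did under limma-voom (adjusted p = 0.0481) and in a fit of only the 12 libraries compared (adjusted p = 0.0268). At day 1, 0 of 9 were called (1.68%, with 0.829% higher and 0.853% lower) by edgeR, DESeq2 or limma-voom, and 1 of 9, Cp, had an unadjusted p under 0.05, beside 19.8% of all genes, with a log2 difference of 0.23 and an adjusted p of 0.148.

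At day 27 the order of air H and air L was turned round for both genes. There 4 of 9 were called (14% of all genes), 3 without overlap (8.1%). Lbp was higher in air H, 17.9 ± 5.18 against 8.60 ± 1.59 CPM, by 1.05 (SE 0.17) on the log2 scale (adjusted p = 3.53e-04 in edgeR). Serping1 was higher by 0.88 (SE 0.17), with 110.2, 121 and 150 CPM as lowest, median and highest in air H and 57.6, 67.05 and 80.4 in air L (adjusted p = 0.00253). Cp was lower in air H by -0.36 (SE 0.08) with an adjusted p of 0.0029, and Cfb by -0.27 (SE 0.09) with an adjusted p of 0.0492, which was 0.0936 without a filter on low counts and 0.106 in a fit of all 72 libraries. A test of the change in the H to L difference between days, added after the data were seen, gave 2.95 (SE 0.29, adjusted p = 1.40e-13) for Lbp and 2.79 (SE 0.23, adjusted p = 1.12e-15) for Serping1 between days 7 and 27. It called 5 of 9 members (29% of all genes) between days 7 and 27 and 2 of 9 (18.1%) between days 1 and 7, where Cfb was called in addition without scaling factors (adjusted p = 0.0453) and in DESeq2 (adjusted p = 0.0499).

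Lbp and Serping1 were also lower in H than in L among the exposed lungs of day 7, which are other animals. Between lungs exposed to 1000 and to 200 ug/m3, which differ in both letter and concentration, 5 of 9 genes were called (27.9%) and 3 did not overlap (10.3%). Lbp differed by -1.40 (SE 0.22) and Serping1 by -1.75 (SE 0.20), with adjusted p values of 8.18e-06 and 1.01e-06 in edgeR and no overlap. The test of whether the H to L difference itself differed between exposed and air lungs gave 0.49 for Lbp and 0.15 for Serping1, with adjusted p values of 0.934 and 0.978. Lcn2 was higher after 1000 ug/m3 by 0.74 (SE 0.24), 85.8 ± 19.5 against 51.8 ± 15.3 CPM, again with no overlap (adjusted p = 0.023). Cfb was higher by 0.36 (SE 0.09) with an adjusted p of 0.00469, and Hp by 0.45 (SE 0.14) with an adjusted p of 0.0167, both with overlap. For Hp an exact permutation test of 6 against 6 animals (two-sided) gave p = 0.0649. Letter and concentration cannot be told apart in this comparison, and air H and air L differed by -0.38, 0.16 and 0.20 for Lcn2, Cfb and Hp. At days 1 and 27 exposed lungs of 1000 and 200 ug/m3 differed in 0 of 9 genes (0% and 0%), with 1 and 2 members at an unadjusted p under 0.05 in edgeR, beside 12.5% and 7.36% of all genes, and 0 of 9 called by DESeq2 and by limma-voom.

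**Figure D3:**
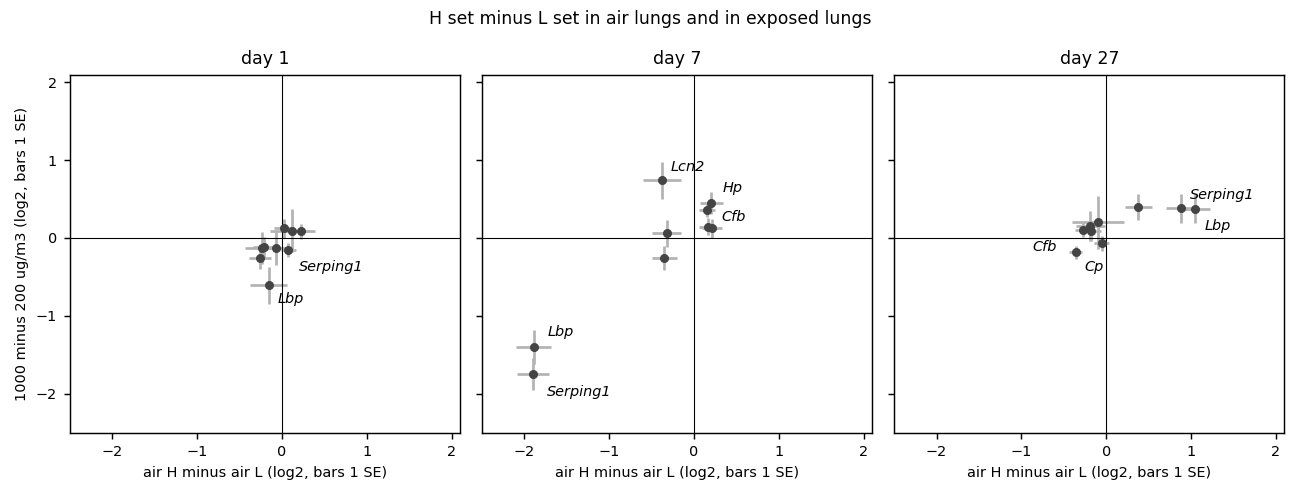
Log2 difference of H minus L in exposed lungs (vertical axis, 1000 minus 200 ug/m3) against the same in air lungs (horizontal axis) for the 9 genes at each day; bars are 1 SE. Lbp and Serping1 lie at -1.40 and -1.75 in exposed lungs at day 7 and at -1.89 and -1.90 in air lungs, and on the positive side of both axes at day 27.

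Over time, Lbp and Serping1 were lower in air H at day 7 than at days 1 and 27. From day 1 to day 7, 4 of 9 genes were called in air H (36.1% of 14956 genes) and 3 did not overlap (18%): Lbp at -2.15 (SE 0.24) and Serping1 at -2.31 (SE 0.17) fell, and Cfb at 0.48 (SE 0.11) and C1s at 0.35 (SE 0.12) rose, with adjusted p values of 5.62e-12, 2.28e-17, 4.60e-04 and 0.0159 in edgeR. From day 7 to day 27, 3 of 9 were called in air H (26.6%), none of the 3 with overlap (15.3%). Lbp rose by 1.97 (SE 0.21) and Serping1 by 1.72 (SE 0.16), and Cp changed by -0.30 (SE 0.09), with adjusted p values of 6.01e-12, 6.85e-13 and 0.0112. A fit of only the 12 air H libraries of those days called 5 of 9. Air L took another course: 0 of 9 were called between days 1 and 7 (14.5%) by edgeR and by DESeq2 and limma-voom, and 2 of 9, Cp and Serping1, had an unadjusted p under 0.05, beside 26.9% of all genes. Between days 7 and 27, 2 of 9 were called (16.6%), both without overlap (10.1%). These were again Lbp at -0.98 (SE 0.20) and Serping1 at -1.08 (SE 0.16), which fell, with adjusted p values of 1.45e-04 and 5.36e-07, and a fit of those 12 libraries alone called 5 of 9. Day 1 libraries were the shallowest, and the day cannot be told apart from the depth of its libraries. Air L at day 27 stood at 0.475-fold of its day 7 level for Serping1 and 0.508-fold for Lbp.

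Of the marker lists summed, only those of endothelium and fibroblasts did not overlap between air H and air L at day 7. For comparison, 14.4% of all genes did not overlap there. Type I pneumocyte sums, for example, were 3034 to 3350 CPM in air H and 3087 to 3495 in air L. Club cell sums overlapped in a narrow range, at 1069 to 1688 CPM in air H and 1539 to 2455 in air L, with medians of 1169 and 1946. No test was run on these sums. The summed level of 5 of 5 endothelial markers was 2469 to 2963 CPM in air H and 3102 to 3556 in air L, and 2299 to 2953 after 1000 ug/m3 and 3114 to 3688 after 200 ug/m3. The 6 fibroblast markers found of 7 summed to 545 to 709 CPM in air H, with 1 gene at 0 in 6 of 6 lungs, and to 759 to 910 in air L. In exposed lungs of day 7 the fibroblast sums overlapped, at 558 to 688 after 1000 ug/m3 and 670.4 to 925 after 200 ug/m3. At day 27 the endothelial sums were 3199 to 3697 in air H and 2721 to 3241 in air L, and the fibroblast sums 687 to 766 and 568 to 708. Their part in the Lbp and Serping1 differences was not tested.

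Within groups, the 9 genes did not vary as a block. After subtracting group means, over 69 lungs with at least 500000 counts, 20 of 36 pairs correlated positively and the median r was 0.11, from -0.50 to 0.79. By 100000 permutations of animals within groups, 20 of 36 pairs had an adjusted p under 0.05, and these are not the same 20 pairs. Among the called pairs, Serping1 with C3, Cfb, C2, C1s and Hp, and Cp with Lcn2 and C2, were negative. The share called among pairs of other genes was not computed. The closest pair was Cfb and C2: Pearson's r was 0.79 (permutation p = 1.00e-05, adjusted p = 9.00e-05) and Spearman's rho 0.77 (permutation p = 1.00e-05, adjusted p = 1.20e-04), where 1e-05 is the smallest p these permutations can give. Its r was 0.89, 0.65 and 0.76 within days 1, 7 and 27 and 0.77 without the 2 lungs farthest from the median. Cfb and C2 are neighbours on chromosome 20 in the RefSeq table, and reads shared between them were not tested for, as the strand setting of the counting is not stated in the labels.

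Around Cfb stood a looser group. For Cfb and C1s Pearson's r was 0.54 (permutation p = 1.00e-05, adjusted p = 9.00e-05) and Spearman's rho 0.55 (permutation p = 1.00e-05, adjusted p = 1.20e-04), with r of 0.72, 0.28 and 0.54 within days 1, 7 and 27 and 0.53 without the 2 farthest lungs. For C3 and Hp Pearson's r was 0.54 (permutation p = 1.00e-05, adjusted p = 9.00e-05) and Spearman's rho 0.49 (permutation p = 1.10e-04, adjusted p = 9.90e-04), with r of 0.54, 0.53 and 0.61 within days 1, 7 and 27 and 0.51 without the 2 farthest. Serping1 ran the other way: with Cfb Pearson's r was -0.50 (permutation p = 1.00e-05, adjusted p = 9.00e-05) and Spearman's rho -0.57 (permutation p = 1.00e-05, adjusted p = 1.20e-04), and r was -0.47, -0.46 and -0.72 within days 1, 7 and 27 and -0.45 without the 2 farthest. The inhibitor's r was negative with 7 of 8 other members and positive with Lbp alone, where Pearson's r was 0.28 (permutation p = 0.018, adjusted p = 0.0378) and Spearman's rho 0.36 (permutation p = 0.00279, adjusted p = 0.0144). That pair held -0.03, 0.31 and 0.60 within days 1, 7 and 27, close to 0 at day 1, and r was 0.34 without the 2 farthest lungs.

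**Figure D4:**
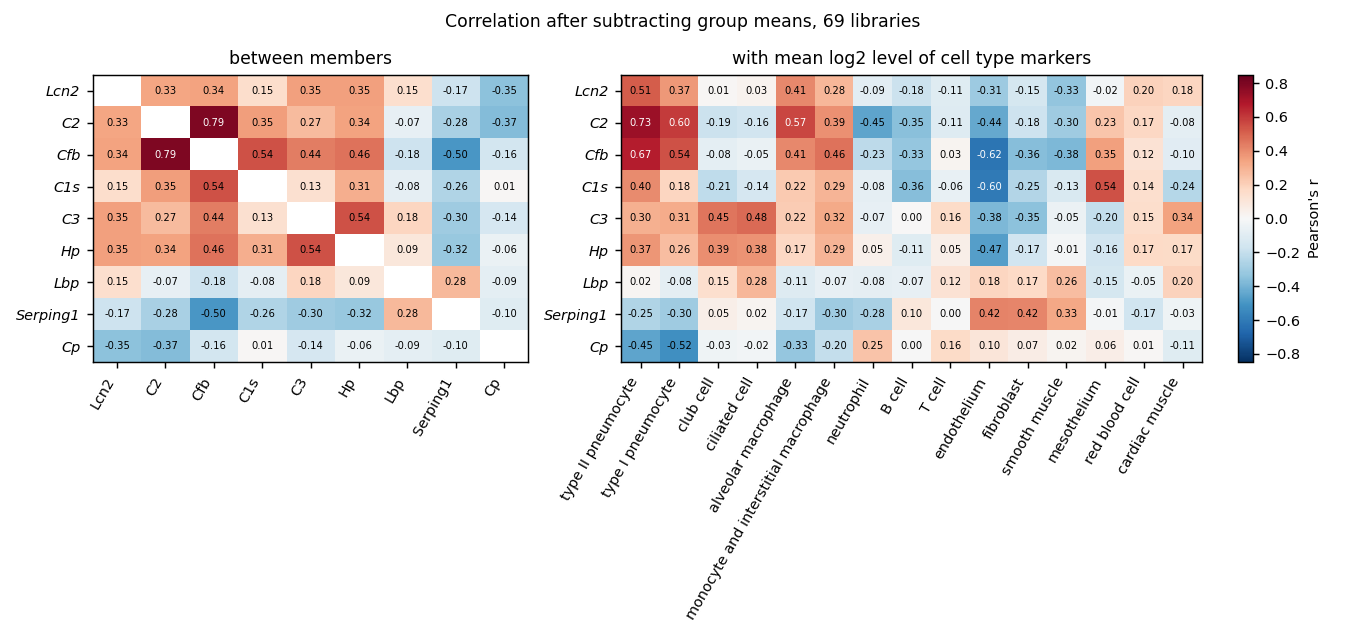
Pearson's r of log2 CPM after subtracting group means over 69 lungs, between the 9 genes (left) and with the mean log2 level of 15 cell marker lists (right); red is positive and blue negative. Cfb and C2 share the highest value, 0.79, and both are highest against type II pneumocyte markers, 0.67 and 0.73.

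Between lungs of a group, levels of the members correlated with those of cell markers, and differences between these correlations were not tested. Of 135 relations between 9 members and 15 marker lists, 38 had an adjusted p under 0.05. The share over all genes was not computed, so this count cannot be read as particular to the members. C2 and Cfb were highest where markers of type II pneumocytes, the surfactant-making alveolar cells, were high (r 0.73, rho 0.74, permutation p = 1.00e-05 and 1.00e-05, adjusted p = 2.25e-04 and 3.38e-04, r without the 2 farthest lungs 0.69 for C2). For Cfb the values were r 0.67, rho 0.63, permutation p = 1.00e-05 and 1.00e-05, adjusted p = 2.25e-04 and 3.38e-04, r without the 2 farthest lungs 0.63. Lcn2 also tracked type II markers, with r 0.51, rho 0.48, permutation p = 8.00e-05 and 2.30e-04, adjusted p = 0.0012 and 0.00311, r without the 2 farthest lungs 0.52. Within days 1, 7 and 27, r of Lcn2 with type II markers was 0.55, 0.26 and 0.68. C2, Cfb and Lcn2 were also positive with other lists at an adjusted p under 0.05 for r. With type I markers r was 0.60, 0.54 and 0.37, and with alveolar macrophage markers 0.57, 0.41 and 0.41. With monocyte and interstitial macrophage markers r was 0.39 for C2 and 0.46 for Cfb. C2 was negative with neutrophil markers (r -0.45), among others. C1s and Hp were also positive with type II markers over all days, at r 0.40 and 0.37. Within days 1, 7 and 27, r of C1s was 0.69, -0.05 and 0.43. For Hp the permutation test of rho did not pass (rho 0.295, adjusted p = 0.0684), and r was 0.29 without the 2 farthest lungs. C3 was highest with airway markers, with r 0.48, rho 0.40, permutation p = 5.80e-04 and 0.00338, adjusted p = 0.00522 and 0.0219, r without the 2 farthest lungs 0.42 for ciliated cells. The highest positive r of C1s was with mesothelium, with r 0.54, rho 0.52, permutation p = 1.00e-05 and 4.00e-05, adjusted p = 2.25e-04 and 9.00e-04, r without the 2 farthest lungs 0.46. Serping1 had its highest r with endothelium and fibroblasts, 0.42 and 0.42, while Cp was negative with type I markers (r -0.52) and with type II markers, with r -0.45, rho -0.44, permutation p = 0.00262 and 4.90e-04, adjusted p = 0.0167 and 0.00551, r without the 2 farthest lungs -0.45. Endothelial markers ran against 5 members with an adjusted p under 0.05, at r -0.62 for Cfb, -0.60 for C1s, -0.47 for Hp, -0.44 for C2 and -0.38 for C3. Within days 1, 7 and 27, r of C2 with type II markers was 0.83, 0.83 and 0.45, and that of C1s with mesothelium 0.40, 0.69 and 0.52. Whether the members' variation follows from these cells was not tested.

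The genes whose pattern was most like each member, by r of group-centred log2 CPM over 69 lungs among 13053 genes, are given as descriptions. Cfb was closest to S100a6 (0.80), Adipor2 (0.80) and C2 (0.79), and C2 to Ctsz (0.80), Krt19 (0.80) and S100a6 (0.79). Serping1 was closest to Hnrnpul2 (0.80), Nisch (0.76) and Gtf2i (0.73), none of them in the acute phase, complement or marker lists. Hp was closest to Vcp (0.72), Rnaset2 (0.69) and Mdh1 (0.68). Lcn2 was closest to Npc2 (0.64), Lpcat1 (0.62) and Col16a1 (0.58). C1s followed Msln (0.64), the mesothelial surface protein mesothelin, then Snrpd2 (0.59) and Slc7a7 (0.57), while C3 followed Spag6 (0.62), an axonemal protein of cilia, then Ephx1 (0.60) and Fuca1 (0.57). Cp was closest to Atg4al1 (0.63), Pkn2 (0.60) and RGD1307100 (0.59). Lbp had the weakest best matches, Taf5l (0.52), Plekhn1 (0.49) and Sema4b (0.48).

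Other genes of these pathways, like nearly all genes tested, showed no calls with exposure. Of 100 further genes in 9 lists of acute phase proteins, complement, their receptors and regulators, and interferon-induced genes, 65 were tested at day 1, 77 at day 7 and 79 at day 27. Of these, 0 were called by edgeR in the 6 exposure comparisons, the 3 dose differences and the mean effect. Over all genes the share called in these comparisons was 0% to 0.0134%, so the absence is not particular to these lists. Crp, Orm1, Fga, Fgb, Il6 and Tnf had medians of 0 to 0.186 CPM and A2m and Mbl2 were at 0 in 72 of 72 libraries. In edgeR's quasi-likelihood test the smallest p values after 1000 ug/m3 belonged to Cd14 at day 1 (log2 -0.49, SE 0.19, adjusted p = 0.9997), C5ar2 at day 7 (0.36, SE 0.11, adjusted p = 1) and Masp1 at day 27 (0.30, SE 0.14, adjusted p = 0.704). After 200 ug/m3 they belonged, in the same edgeR test, to Isg15 at day 1 (-0.73, SE 0.20, adjusted p = 0.627), Mx1 at day 7 (-0.86, SE 0.25, adjusted p = 0.6) and Lrp2 at day 27 (-0.22, SE 0.09, adjusted p = 0.445).

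Between the letters, pathway genes were called in both directions. At day 1, 0 of 65 were higher and 4 lower in air H than in air L, 6.15% beside 1.68% of all genes, and these 4 were the interferon-induced genes Oasl, Oas1a, Irf7 and Tap1, with Oasl at -1.02 (SE 0.21, adjusted p = 0.0201 in edgeR). At day 7, 2 of 77 were higher and 9 lower in air H than in air L, which is 14.3% beside 25.5% of all genes. The membrane inhibitor of complement Cd59 was lower at 266 against 411 CPM, a log2 difference of -0.65 (SE 0.06, adjusted p = 2.18e-09 in edgeR). Fcnb, a ficolin that starts the lectin pathway, was lower at -1.22 (SE 0.23, adjusted p = 0.000256). The NF-kappa B subunit Rela was lower at -0.51 (SE 0.08, adjusted p = 4.75e-06), while the cytokine Il1b was higher at 0.53 (SE 0.20, adjusted p = 0.0433). At day 27, 2 of 79 were higher and 3 lower, 6.33% beside 14% of all genes. Fcnb and Rela were the 2 higher ones, at 0.86 (SE 0.27, adjusted p = 0.0350) and 0.32 (SE 0.08, adjusted p = 0.00687), each called in the opposite direction to day 7. Exposed lungs of 1000 and 200 ug/m3 differ in both letter and concentration. Between them at day 7, 14 were higher and 6 lower of 77, 25.97% beside 27.9% of all genes. The called genes included 5 of 14 interferon-induced genes, all 5 higher, beside 11.7% of all genes called higher. Irf1, at 0.33 (SE 0.07, adjusted p = 0.000598 in edgeR), was among them. The complement inhibitor C4bpa was higher at 0.70 (SE 0.17, adjusted p = 0.00294).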

How the data were processed

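The authors deposited raw read counts per gene symbol for 72 libraries, 1 per animal. The labels' protocols give total RNA from lung, rRNA depletion and a stranded kit. The submitters' processing notes name, with no role or order, the aligner HISAT2 2.1.0, the counter HTSeq 0.6.1, the build Rnor_6.0, and also Trimmomatic 0.35, SAMtools 1.8 and bcl2fastq 2.19. Which annotation release and strand setting were used is not given in the sources used here.

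CPM with TMM factors were computed here with edgeR 4.0.16 (R 4.3.3). Genes passing filterByExpr were tested by edgeR's robust quasi-likelihood test with Benjamini-Hochberg adjustment over all genes and a threshold of 0.05. Comparisons within a day used that day's 24 libraries, and the others all 72. The standard error is the log2 fold change divided by the square root of F. Alternatives used DESeq2 1.42.0, limma-voom (limma 3.58.1), other scaling, filters, fits and controls. Correlations used log2 CPM with a prior count of 2. Levels are not compared between genes, since gene lengths were not used. On simulated counts for exposure to 1000 ug/m3, 88.5% of 200 genes changed 2-fold were recovered at day 1 (12304 genes), 84.5% at day 7 (14331) and 87% at day 27 (14761). False calls numbered 6, 9 and 6. With 200 genes changed at once the adjustment is less strict than with few. These shares therefore do not give the recovery of a lone changed gene.

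All 9 members are named. Of other lists, genes named are among the up to 4 with the smallest adjusted p past the threshold, or, with none called, those with the smallest p. The 3 genes of highest r are named for each member. Members and lists were chosen with earlier results of these data known, and the test of the H to L difference between days was added after the data were seen. Of 180 pairs of libraries within groups, 0 were identical and the lowest chi-square per degree of freedom was 1.243.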

Additional observations from a re-analysis of the deposited data

Results flagged for a closer look

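In 8 of 108 combinations of gene and group (7.41%), 1 animal stood apart from the other 5 by a gap to the nearest beyond Dixon's 95% limit for 6 values, where chance gives about 1 in 20. Lcn2 in animal 015 at day 7 after 1000 ug/m3 stood at 123.3 CPM, with the next animal at 88.8. C3 in animal 003 of air H at day 1 was low at 145.6, with the next at 233. Serping1 in animal 089 at day 27 after 200 ug/m3 was high at 124.9, with the next at 76.9 and the air H animals of that day around the same level. Hp in animal 006 at day 1 after 1000 ug/m3 was low at 7.889 CPM on 9 counts, with the next at 16.5. Cp stood apart in 3 animals: 202.3 in animal 030 at day 1 after 1000 ug/m3 (next 308), 321.1 in animal 058 at day 1 after 200 ug/m3 (next 298) and 201.8 in animal 037 at day 7 after 1000 ug/m3 (next 355). Animal 037 is a shallow library with 23 Cp counts, as is animal 024 at day 27, whose C1s level of 104.8 (next 75.5) rests on 47 counts.

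The difference between air H and air L itself differed between days for 5 genes, by edgeR's interaction contrast over all 72 libraries with Benjamini-Hochberg adjustment. Between days 1 and 7 it changed by -1.75 for Lbp (adjusted p = 1.63e-05) and -1.988 for Serping1 (adjusted p = 1.53e-09) on the log2 scale. Between days 7 and 27 it changed by 2.951 for Lbp (adjusted p = 1.40e-13), 2.791 for Serping1 (adjusted p = 1.12e-15), 0.7432 for C2 (adjusted p = 0.0100), -0.4141 for Cfb (adjusted p = 0.0354) and -0.5088 for Cp (adjusted p = 0.00182). Of all genes tested, 18.1% and 29% were called in the same 2 contrasts.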

How the results depend on the processing

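Of 1565 values of the members refitted across all genes under other settings, 1551 stayed on the same side of the threshold, 12 became called, 2 lost a call (Cfb between air H and air L at day 27), and no called value changed sign. In the exposure, dose and mean comparisons 0 of 9 were called under every such setting, with the lowest adjusted p at 0.0564, for Cfb at day 27 after 200 ug/m3. Of 144 exact permutation tests, unadjusted, 18 fell under 0.05 where edgeR made no call and 1 did not where it did, Hp between the exposed lungs of day 7. A fit of only the 12 libraries compared called 5 of 9 in air H between days 7 and 27, 5 of 9 between air H and air L at day 27 (C2 added), 2 of 9 in air L between days 1 and 7 and 5 of 9 in air L between days 7 and 27. Library totals without scaling factors called 1 of 9 in air L between days 1 and 7 and 5 of 9 in air H (Cp added).

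Over all genes, air H against air L at day 1 gave 207 calls in edgeR, 446 in DESeq2, 1016 in a fit of 72 libraries and 129 with a filter of 1 CPM. Exposed lungs of day 1 gave 0, but 150 in the fit of 72 libraries, 19 in DESeq2, 6 with no filter, 2 with the CPM filter and 1 in the fit of 12. The dose difference at day 27 gave 0, but 34 in DESeq2 and 22 in the fit of 72. DESeq2 gave 11 and 6 calls at day 27 after 200 and 1000 ug/m3 where edgeR gave 0, 5 at day 7 after 200 ug/m3 where edgeR gave 1, and 1 at day 1 after 200 ug/m3, where the fit of 12 gave 6. Other counts that differed by more than 1.5 times lay between 0 and 4. No paired analysis was possible because animal numbers differ between all groups. With the animal number series (1 to 24, 25 to 48) as a block, 0 of 9 were called after 1000 ug/m3 on each day. Depth limits the 3 shallow libraries most, and leaving them out changed no member's call.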
